A study of Mesocricetus auratus with 10 samples.

Results

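Chaperones are described here by 74 gene names of the array, those of the DNAJA, DNAJB, DNAJC, HSP, PDIA and CCT families, out of 14434 gene names in all. A name was taken when it began with DNAJA, DNAJB or DNAJC, or with PDIA or CCT and a digit. Names with HSP were taken when a digit or A, B, D, E or H followed. Each gene was represented by its brightest probe. Of the 74 genes, 72 had a probe above the filter on dim signals and were tested among 13827 genes. DNAJC18 and HSPB3 were not tested, since their probes were well above background on 5 and 4 of 20 arrays in HFD RNA and on 4 and 2 in the pool. By textbook localisation, 17 of the tested genes act in the endoplasmic reticulum (ER), 7 in mitochondria and 37 in the cytosol, and 11 act elsewhere or in several places.

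Chaperones bind unfolded chains and let them fold. HSP70 proteins do so in cycles of ATP use, with DNAJ proteins delivering the substrate, while HSP90 proteins finish selected clients and the CCT ring encloses actin, tubulin and others. In the ER, which in liver folds the secreted plasma proteins, protein disulphide isomerases (the PDIA genes) form disulphide bonds beside HSPA5 and HSP90B1, and in mitochondria HSPA9 and the HSPD1 and HSPE1 chamber fold imported proteins. Heat shock factor 1 drives the cytosolic genes under protein stress, and the unfolded protein response drives those of the ER.

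In a study of diet-induced fatty liver, 10 male golden hamsters (Mesocricetus auratus) received a high fat diet (HFD) and 10 others a standard diet (STD), whose liver RNA was combined into 1 pool. The sources used here give neither the ages, nor the feeding time, nor the make-up of the diets. The RNA of each HFD liver shared 2 arrays with the pool, 1 in each dye orientation, which makes 20 arrays, and the 10 HFD animals are the replicates. Unless stated otherwise, a value is the log2 of the HFD signal over that of the pool, with the SD between HFD animals (n = 10) and an adjusted p from limma, two-sided. The pool stands for the controls as 1 RNA, so the test against 0 leaves out the spread between STD animals, and the number of arrays limits the precision. In whole liver, fewer cells of a type and less RNA per cell cannot be told apart. Which dye holds HFD on an array, and with it the sign of every ratio, rests on the array names.

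Of the 20 arrays, 6 stood apart, those with HFD in Cy3 of animals 5 to 10. The SD of the log2 ratio across the 72 chaperones was 0.45 to 0.64 on these and 0.20 to 0.33 on the other 14. The same SD over all genes tested was 0.390 to 0.497 on the 6 arrays and 0.243 to 0.353 on the other 14. The 6 arrays were spread over all 3 scan sessions. Where a member's call rests on them, its value on the other 14 arrays is given beside it or further below. The same was done for many, but not all, members whose size rests on them. Gene values and calls on the 14 arrays come from limma with a dye term and animal as a random block, and are not plain means. The fit weighs the 2 dye orientations about equally. Each of the 4 arrays with HFD in Cy3 of animals 1 to 4 thus counts more than each of the 10 with HFD in Cy5. This weighting and the absence of the 6 arrays cannot be told apart. Hepatocyte markers moved with the diet, with 6 of 9 lower, 1 higher and an animal mean between -0.49 and -0.11. Of 5 macrophage markers, CD68, CLEC4F, LGALS3 and MARCO were higher and CD163 lower, with an animal mean between 0.24 and 0.75. Of the other lists, 5 of 6 lymphocyte markers were lower, 3 of 6 endothelial markers higher and 2 lower, 1 of 5 stellate cell markers higher and 1 lower, and 3 cholangiocyte markers lay between -0.05 and 0.09. The part of cell type composition in the chaperone results was not tested.

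Some genes of this array have probes in both directions. A probe is called forward here when its sequence, read as printed, carries the codon use of the mRNA, and reverse when its complement does. Labelled cRNA is complementary to mRNA, so a forward probe can pair with it, and a reverse probe has the strand of the cRNA itself. Of the 373 chaperone probes, 161 read forward, 121 reverse and 91 could not be assigned. Amino acid signatures of the families, such as the J domain triplet and the disulphide isomerase active site, lie in 22 chaperone probes, and in all 16 of these with an assigned direction the signature read in that direction. As a check of consistency, 532 of 536 pairs of probes on the array that share at least 25 bases as reverse complements had opposite directions by codon use. The score changes sign when a sequence is turned to its reverse complement, so opposite directions follow largely from how it is built. This check cannot show which strand is the coding one. What reverse probes bound was not tested.

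The probes below are shown because both strands of 1 stretch were spotted, so that the pair differs in strand over the capitals and the ratios can be set side by side. The capitals mark the bases that the 2 probes of a gene share as reverse complements. All are 60 bases long, as the array design gives them, 5′ to 3′, and the design gives no genome position.
HSPA5 reverse: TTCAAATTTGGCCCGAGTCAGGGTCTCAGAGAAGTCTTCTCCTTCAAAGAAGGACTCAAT
HSPA5 forward: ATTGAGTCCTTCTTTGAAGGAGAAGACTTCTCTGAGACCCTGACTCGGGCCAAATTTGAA
PDIA4 reverse: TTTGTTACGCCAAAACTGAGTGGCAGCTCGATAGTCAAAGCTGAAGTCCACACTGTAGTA
PDIA4 forward: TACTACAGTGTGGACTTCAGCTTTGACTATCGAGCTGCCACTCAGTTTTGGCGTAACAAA
CCT5 reverse: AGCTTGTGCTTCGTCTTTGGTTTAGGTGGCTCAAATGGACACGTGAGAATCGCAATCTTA
CCT5 forward: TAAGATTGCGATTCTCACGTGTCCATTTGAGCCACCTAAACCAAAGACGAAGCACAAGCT
HSPA9 reverse: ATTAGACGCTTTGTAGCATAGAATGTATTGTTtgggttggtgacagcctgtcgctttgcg
HSPA9 forward: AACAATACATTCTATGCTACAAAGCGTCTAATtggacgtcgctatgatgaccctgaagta
The next pair shows how a protein signature gives the direction. The capitals in the PDIA3 probe encode the disulphide isomerase active site when read as printed, and the capitals in the DNAJC3 probe encode the J domain triplet when read on the complement.
PDIA3 forward: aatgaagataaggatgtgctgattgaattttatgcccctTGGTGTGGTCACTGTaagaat
DNAJC3 reverse: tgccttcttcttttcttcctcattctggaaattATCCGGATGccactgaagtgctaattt

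With the brightest probe of each gene, 37 of the 72 chaperones were lower in HFD livers, 10 were higher and 25 were not called. Over all genes tested, 28.9% were lower, 31.4% were higher and 60.3% were called in either direction, against 51.4% lower and 13.9% higher among the chaperones. The median log2 ratio was -0.10 over the chaperones and 0.01 over all genes. It was below 0 in all 10 animals, between -0.21 and -0.05. By compartment, 10 of 17 ER genes were lower and 4 higher (median -0.21), 5 of 7 mitochondrial genes were lower and 1 higher (median -0.24), 18 of 37 cytosolic genes were lower and 2 higher (median -0.09), and 4 of 11 genes of other places were lower and 3 higher (median -0.08). On the 14 arrays, 25 chaperones were lower and 7 higher, against 18.3% of all genes lower and 24.9% higher. There, 9 ER genes were lower and 1 higher (median -0.16), 3 mitochondrial genes were lower and 1 higher (median -0.08), 10 cytosolic genes were lower and 2 higher (median -0.05), and 3 genes of other places were lower and 3 higher (median -0.09).

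**Figure D1:**
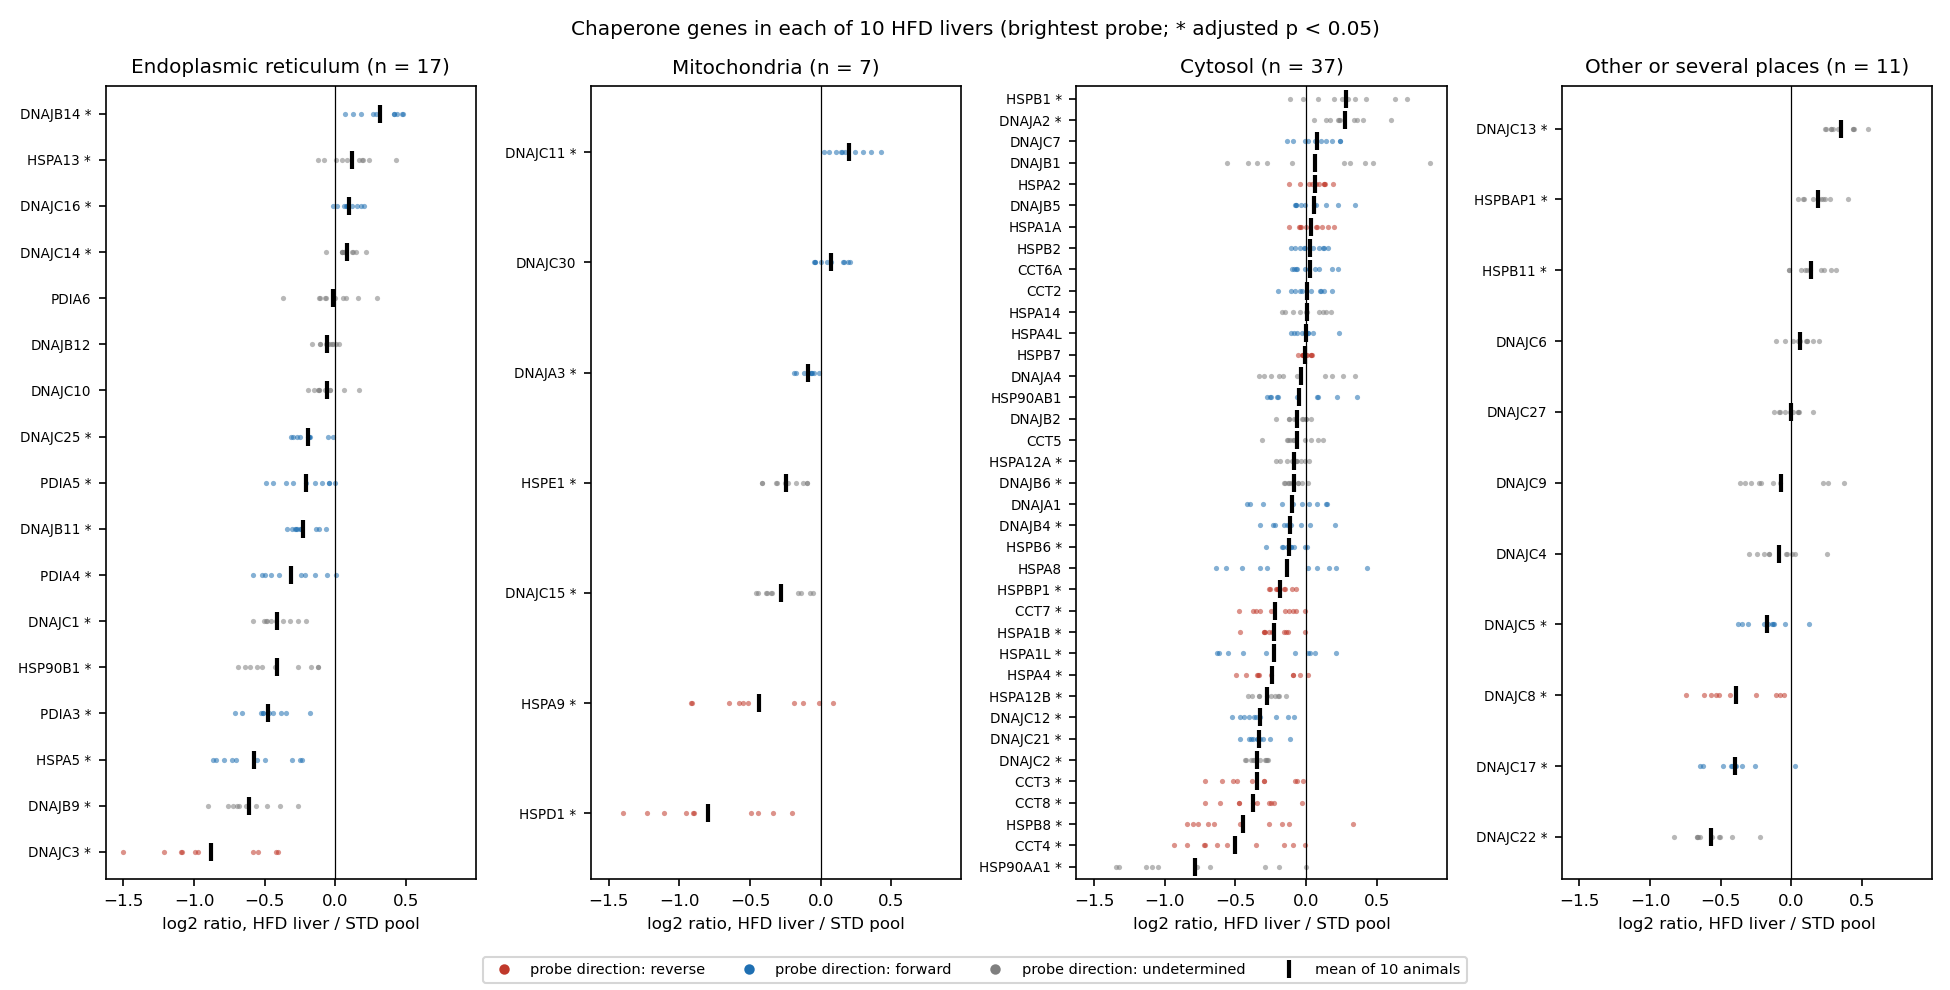
Log2 ratio of HFD liver over STD pool (x axis) for 72 chaperone genes (y axis), 1 point per HFD animal and a bar at the mean, coloured by probe direction and split by compartment. DNAJC3, HSPD1 and HSP90AA1 lie farthest to the left and DNAJC13 and DNAJB14 farthest to the right.

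In the ER the lower genes included both principal luminal chaperones. HSPA5 (BiP), the ER HSP70, lay between -0.87 and -0.24 with a median of -0.63 over the 10 animals, and all were below the pool. Its mean was -0.58 ± 0.25 (SD, n = 10), a level 1.49-fold lower in HFD livers (adjusted p = 9.89e-06), and it was -0.52 on the 14 arrays. HSP90B1 (GRP94), the ER HSP90, lay between -0.69 and -0.12 with a median of -0.47 and averaged -0.41 ± 0.22 (adjusted p = 7.7e-05). It was -0.38 on the 14 arrays. Both genes were below the pool in every HFD animal and were called with and without the 6 arrays.

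Of the J domain proteins of the ER, 5 of 10 were lower and 3 higher. DNAJB9, which also restrains the stress sensor IRE1, lay between -0.90 and -0.27 with a median of -0.66, below the pool in all animals, and averaged -0.61 ± 0.19 (adjusted p = 7.22e-07, and -0.45 on the 14 arrays). DNAJC3, an inhibitor of the kinases that phosphorylate eIF2 alpha and a luminal partner of HSPA5, had the lowest ratio of all 72 genes, between -1.51 and -0.40 with a median of -0.98 and a mean of -0.88 ± 0.37 (adjusted p = 7.88e-06). It was -0.47 on the 14 arrays, and each of its 8 probes read reverse. DNAJB11, which hands substrates to HSPA5, averaged -0.23 ± 0.09 (adjusted p = 2.87e-05), and DNAJC1, a membrane-bound ER J protein, -0.41 ± 0.12 (adjusted p = 8.41e-07, and -0.26 on the 14 arrays). The membrane J protein DNAJC25 was also lower, at -0.20 ± 0.10. DNAJB14, an ER membrane protein whose J domain faces the cytosol, was higher. It lay between 0.06 and 0.48 with a median of 0.35, above the pool in all animals, and averaged 0.31 ± 0.15 (adjusted p = 4.4e-05), but it averaged 0.07 on arrays with HFD in Cy5 and 0.56 with HFD in Cy3. It was 0.21 on the 14 arrays. DNAJC16 was called higher by a small amount (0.10 ± 0.07), while its reverse probe was called lower (-0.13). DNAJC14 was called higher at 0.08 ± 0.08, but it averaged -0.16 with HFD in Cy5 and 0.33 with HFD in Cy3 (adjusted p of the difference 1.6e-05). DNAJC10, a reductase of misfolded proteins, was not called at -0.06 ± 0.11, and its other probe read 0.23.

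Among the disulphide isomerases, PDIA3 (ERp57), which works on glycoproteins with calnexin and calreticulin, lay between -0.71 and -0.18 with a median of -0.49. It was below the pool in all 10 animals and averaged -0.47 ± 0.15 (adjusted p = 1.41e-06, and -0.35 on the 14 arrays). PDIA4 (ERp72) averaged -0.31 ± 0.21 (adjusted p = 0.000413) and PDIA5 -0.21 ± 0.17 (adjusted p = 0.00237). PDIA6, a partner of HSPA5, lay on both sides of the pool, between -0.37 and 0.29, and was not called at -0.02 ± 0.18 (adjusted p = 0.811, 95% interval -0.12 to 0.09). Of the 3 further probes of PDIA6, however, 2 were lower, with a median of -0.19 over the 3. With the mean of all its probes PDIA6 was called lower at -0.11 (adjusted p = 0.0322). HSPA13, a microsomal HSP70 relative without the usual substrate domain, was called higher at 0.12 ± 0.16 (adjusted p = 0.0457). It lost its call when any 1 of animals 1, 4, 5, 6, 7, 8 and 9 was left out (lowest mean 0.08) and turned to -0.10 on the arrays with HFD in Cy5.

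In mitochondria the HSP60 and HSP70 chaperones were lower by their brightest probes. HSPD1 (HSP60) lay between -1.40 and -0.20 with a median of -0.90, below the pool in all animals, and averaged -0.80 ± 0.41 (adjusted p = 3.57e-05, and -0.38 on the 14 arrays). HSPE1, its lid, averaged -0.24 ± 0.12 and was -0.21 on the 14 arrays. HSPA9 (mortalin), the import motor, lay between -0.92 and 0.09 and averaged -0.43 ± 0.36 (adjusted p = 0.00162). On the 14 arrays HSPA9 was -0.09 and lost its call (adjusted p = 0.0512). DNAJC15, a J protein of the import machinery, averaged -0.28 ± 0.16, but -0.06 without the 6 arrays (adjusted p = 0.246), and DNAJA3 was lower by -0.09 ± 0.06. DNAJC11, a protein of the cristae complex, was higher at 0.20 ± 0.13 (adjusted p = 0.000627), with all animals above the pool, and DNAJC30 was not called at 0.07 ± 0.10.

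In the cytosol 1 of the 2 HSP90 genes was called. HSP90AA1, the inducible form, lay between -1.34 and -0.00321 with a median of -0.91 and averaged -0.79 ± 0.48 (adjusted p = 0.000162), a level 1.73-fold lower in HFD livers. It was -0.34 on the 14 arrays, and its 2 further probes had a median of -0.20. HSP90AB1, the constitutive form, lay between -0.28 and 0.36 on both sides of the pool and was not called at -0.05 ± 0.23 (adjusted p = 0.497). Of its 6 further probes, however, 5 were lower. The HSP70 genes HSPA8 (-0.14 ± 0.36, adjusted p = 0.243) and HSPA1A (0.04 ± 0.10, adjusted p = 0.346) were not called on their brightest probes. The HSPA1A value is that of a reverse probe, and 5 of its 6 further probes were lower (median -0.20 over the 6). Of the 11 further probes of HSPA8, 4 were lower, all of them reverse. HSPA1B, an inducible HSP70, averaged -0.23 ± 0.13 (-0.13 on the 14 arrays) and HSPA4, an HSP110 exchange factor, -0.24 ± 0.18 (-0.09), both lower. Probes of HSPA1A and HSPA2 share 43 bases and those of HSPA1A and HSPA1L 21, so these closely related genes may share signal.

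Of the cytosolic J proteins 5 of 12 were lower and 1 higher. DNAJC2, a ribosome-bound partner of HSP70, averaged -0.34 ± 0.06, and DNAJC21, needed for ribosome assembly, -0.33 ± 0.10. DNAJC12, a partner of the aromatic amino acid hydroxylases, averaged -0.33 ± 0.15 (adjusted p = 2.42e-05). DNAJA2 was higher at 0.28 ± 0.16 (0.10 on the 14 arrays), while DNAJA1, its close relative, was not called at -0.10 ± 0.21. Of the 4 further probes of DNAJA2, 1 was higher and 1 lower. Among the small heat shock proteins, HSPB1 (HSP27) was higher at 0.28 ± 0.26 (adjusted p = 0.00415) and lay between -0.12 and 0.71, above the pool in 8 of 10 animals. Its 1 probe had no assigned direction. HSPB1 lost its call on the arrays with HFD in Cy3 (0.14, adjusted p = 0.252) and in the third scan session (0.25, adjusted p = 0.0526). HSPB8, a partner of BAG3, was lower at -0.44 ± 0.38 (adjusted p = 0.00207) and lost its call on the 14 arrays at -0.11 (adjusted p = 0.197). In other places, DNAJC22 averaged -0.57 ± 0.17, the spliceosomal DNAJC8 -0.39 ± 0.25 (-0.14 on the 14 arrays) and the nuclear DNAJC17 -0.40 ± 0.19, all lower. DNAJC13, an endosomal J protein, was higher at 0.35 ± 0.10 with a range of 0.23 to 0.54 (adjusted p = 1.48e-06), as were HSPBAP1 (0.19 ± 0.10) and HSPB11, an intraflagellar transport protein (0.14 ± 0.12, and 0.32 on the 14 arrays).

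The remaining chaperones had smaller ratios and were chosen for naming after their values were seen. Those called lower were HSPA12B (-0.27 ± 0.09, and -0.15 on the 14 arrays), a distant HSP70 relative of endothelium, HSPBP1 (-0.18 ± 0.06), DNAJC5 (-0.17 ± 0.15), a J protein of secretory vesicles, HSPB6 (-0.12 ± 0.08), DNAJB4 (-0.11 ± 0.15), DNAJB6 (-0.09 ± 0.05), a suppressor of protein aggregation, and HSPA12A (-0.09 ± 0.07). The value of HSPBP1 is that of a reverse probe, and 2 of its 4 further probes were higher and none lower, with the brightest forward probe at 0.12 (adjusted p = 0.0236). Calls were lost on the 14 arrays by HSPA4 (-0.09), HSPA1L (-0.16), HSPB6 (-0.09), DNAJB6 (-0.06), DNAJC5 (-0.13), DNAJC16 (0.07) and DNAJC25 (-0.09). Their adjusted p there lay between 0.0632 and 0.117. HSPA13 (0.07, adjusted p = 0.355), DNAJC14 (0.03, adjusted p = 0.533) and HSPA12A (0.02, adjusted p = 0.699) also lost their calls there. The uncalled genes not yet named were DNAJC7, HSPA2, DNAJC6, DNAJB5, HSPB2, HSPA14, HSPA4L, DNAJC27, HSPB7, DNAJA4, DNAJB12, DNAJB2, DNAJC9, DNAJC4 and DNAJB1, with means between -0.09 in DNAJC4 and 0.08 in DNAJC7. DNAJC9, a histone chaperone, ranged most widely after DNAJB1 among these, between -0.36 and 0.37. Further probes of these uncalled genes were lower in DNAJC7 (4 of 5), DNAJB12 (3 of 5) and HSPA2 (2 of 6). DNAJA4 (1 of 6) and HSPA14 (1 of 5) also had a lower one. Higher further probes were found in DNAJB5 (2 of 2), DNAJB1 (1 of 4) and DNAJC6 (1 of 1). On its brightest forward probe DNAJB12 was lower at -0.28 ± 0.11 (adjusted p = 7.13e-06).

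The CCT ring is built from 8 different subunits that act as 1 machine, and 7 of them carry a CCT name here. CCT4 averaged -0.50 ± 0.33, CCT8 -0.38 ± 0.20, CCT3 -0.35 ± 0.24 and CCT7 -0.22 ± 0.15, all lower in all 10 animals. CCT2 (0.01 ± 0.12), CCT6A (0.03 ± 0.11) and CCT5 (-0.06 ± 0.13) were not called. The calls went with probe direction, since all probes of CCT3, CCT4, CCT7 and CCT8 read reverse, and all of CCT2 and CCT6A read forward. CCT5 had both, and its 6 forward probes lay between -0.11 and -0.04 while its 9 reverse probes lay between -0.60 and -0.29. All 33 reverse CCT probes were lower and 5 of the 21 forward ones. The eighth subunit, TCP1, which has no CCT name, was not called at 0.01 ± 0.14 and had a forward probe. On the 14 arrays CCT4 (-0.12, adjusted p = 0.0542) and CCT7 (-0.04, adjusted p = 0.337) lost their calls, and CCT3 (-0.16) and CCT8 (-0.20) kept them.

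**Figure D2:**
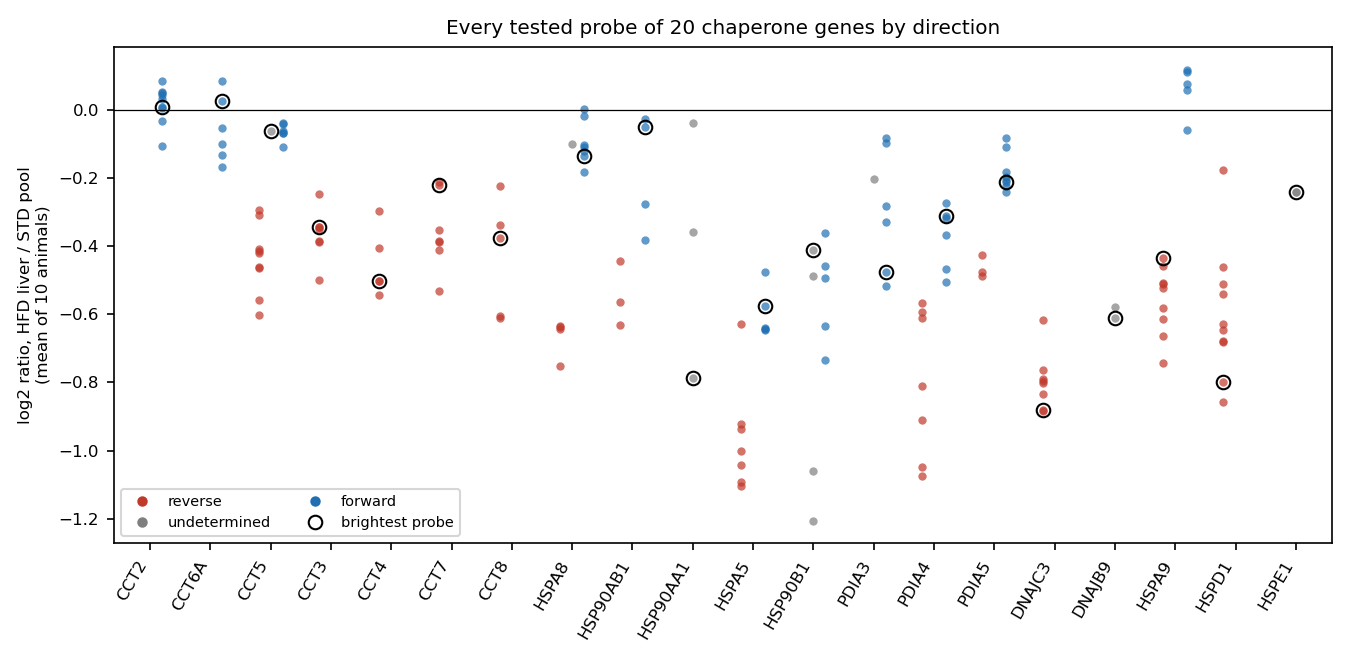
Mean log2 ratio of HFD liver over STD pool (y axis) for every tested probe of 20 chaperone genes (x axis), coloured by probe direction, with a ring round the brightest probe. Reverse probes of CCT5, HSPA9 and HSPA5 lie below the forward probes of the same genes.

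Probe direction went with the ratio across the chaperones. Of the 117 tested reverse probes 88.0% were lower in HFD livers, with a median of -0.46. Of the 155 forward probes 47.1% were lower and 9.03% higher, with a median of -0.10. Over all named probes of the array 28.2% were lower and 31% higher, and by direction 55.4% of reverse probes were lower (median -0.12) and 18.7% of forward probes (median 0.05), so the same order held over the array. Probes in both directions were present for 15 chaperones, and the reverse one was lower in 11. The difference of reverse minus forward had a median of -0.30, and limma called 10 genes with reverse lower and 2 with reverse higher. Over the 1104 genes of the array with both, the median difference was -0.16, reverse was lower in 77.8% and it was called lower in 57.4%. On the 14 arrays the reverse probe was lower in 11 of the 15 chaperones (median -0.13) and in 71.3% of all such genes (median -0.09). HSPA8 was called lower on its reverse probe (-0.64 ± 0.48) and not on its forward probe (-0.14 ± 0.36), with a called difference (adjusted p = 3.88e-05). HSP90AB1 had -0.44 ± 0.34 on its brightest reverse and -0.05 ± 0.23 on its brightest forward probe (adjusted p of the difference 9.88e-05). The brightest forward probe was not called, but 2 of the 4 forward probes of HSP90AB1 were lower, as were all 3 reverse ones. DNAJC17, at 0.01 on the reverse and -0.40 on the forward probe, and HSPA1A, at 0.04 and -0.25, went the other way.

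**Figure D3:**
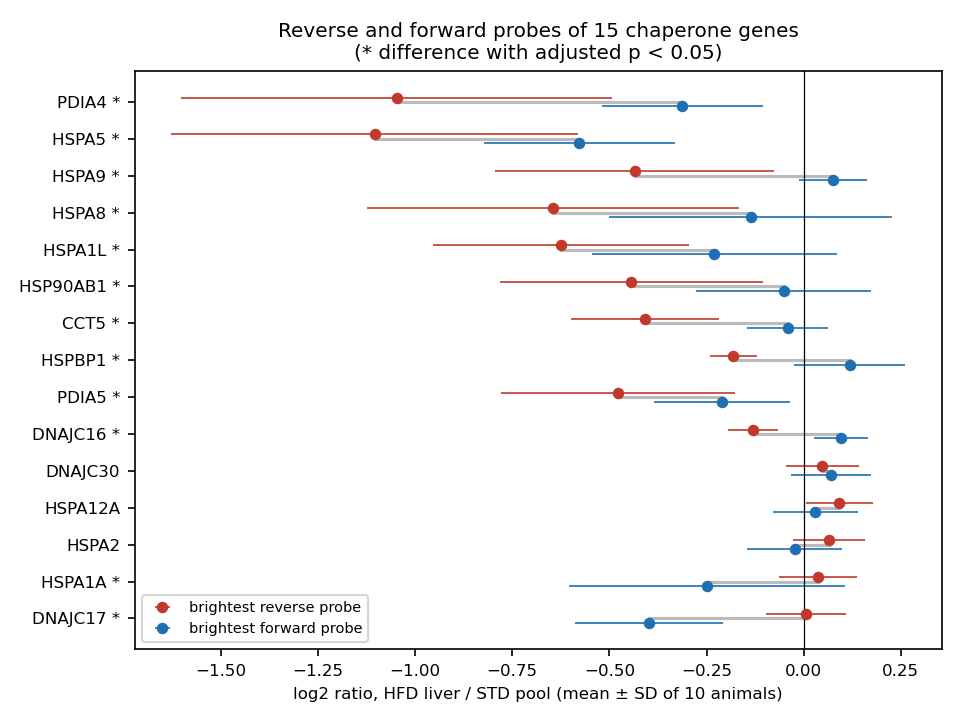
Log2 ratio of HFD liver over STD pool (x axis, mean ± SD of 10 animals) for the brightest reverse and the brightest forward probe of 15 chaperone genes (y axis). The reverse probe is lower in 11 of the 15 genes, with DNAJC17 and HSPA1A called the other way.

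The strand pairs printed above show the same over identical bases. The reverse probe of HSPA5 lay between -1.82 and -0.31 and averaged -1.09 ± 0.54, while the forward probe lay between -0.78 and -0.05 and averaged -0.48 ± 0.27. The reverse probe was lower in all 10 animals (adjusted p = 0.000119). For CCT5 the reverse probe averaged -0.60 ± 0.31 and the forward probe -0.07 ± 0.14, again lower in all animals (adjusted p = 3.72e-05). For PDIA4 the values were -0.57 ± 0.26 for the reverse and -0.37 ± 0.24 for the forward probe (adjusted p = 0.00855, lower in 8 of 10 animals). The HSPA9 pair, which shares 32 bases, averaged -0.46 ± 0.28 on the reverse and 0.06 ± 0.13 on the forward probe (adjusted p = 0.000605). The overlapping chaperone pairs numbered 12 and came from 8 genes. Reverse was the lower strand in all 12, against 86.5% of the 820 such pairs of the array. It was called so in 9 of the 12, against 67.3% of the 820. In the exact pair of HSPBP1, an exchange factor of HSP70, the reverse probe averaged 0.01 ± 0.15 and the forward probe 0.12 ± 0.14, which was not called (adjusted p = 0.215).

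Read by forward probes alone, 38 chaperones could be tested, with 17 lower and 6 higher, against 22.5% and 38.2% of 5873 genes. The ER genes had 8 of 10 lower and 2 higher (median -0.25). HSPA5 (-0.58 ± 0.25), PDIA3 (-0.47 ± 0.15) and HSP90B1 (-0.74 ± 0.25 on its brightest forward probe) were all lower. Of the 4 mitochondrial genes with forward probes 1 was lower and 2 higher (median 0.07), and HSPA9 was higher at 0.07 ± 0.09 (adjusted p = 0.042). Of the 22 cytosolic genes 6 were lower and 2 higher (median -0.03). Reverse probes and no forward one were present for HSPD1, DNAJC2, DNAJC3, DNAJC8, DNAJC13, HSPA1B, HSPA4, HSPB7, HSPB8, CCT3, CCT4, CCT7 and CCT8. The forward reading of these genes was therefore not measured. The brightest probes of DNAJC2 and DNAJC13 had no assigned direction, and those of the others in this list read reverse. The reverse set held 28 genes, with 21 lower and 1 higher, against 48% and 9.84% of 2753 genes.

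The 2 dye orientations of the same RNAs were compared as the ratio with HFD in Cy5 minus that with HFD in Cy3. This difference was called in 41 of 72 chaperones, against 48.8% of all genes, and it was called with the lower ratio under HFD in Cy3 in 27 of the 72, against 25.8% of all genes. The ER median was -0.26 with HFD in Cy5 and -0.16 with HFD in Cy3, the mitochondrial median -0.11 and -0.37, and the cytosolic median -0.06 and -0.14. HSP90AA1 averaged -0.33 with HFD in Cy5 and -1.24 with HFD in Cy3 (adjusted p of the difference 0.0048), DNAJC3 -0.48 and -1.28 (adjusted p = 0.007), and DNAJC8 -0.10 and -0.68 (adjusted p = 0.0026). HSP90B1 went the other way, at -0.50 with HFD in Cy5 and -0.32 with HFD in Cy3 (adjusted p = 0.0013). PDIA4 was also lower with HFD in Cy5, at -0.42 against -0.20. HSPA5, HSP90B1, PDIA3, DNAJB9 and HSPD1 were below the pool on average in both orientations.

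**Figure D4:**
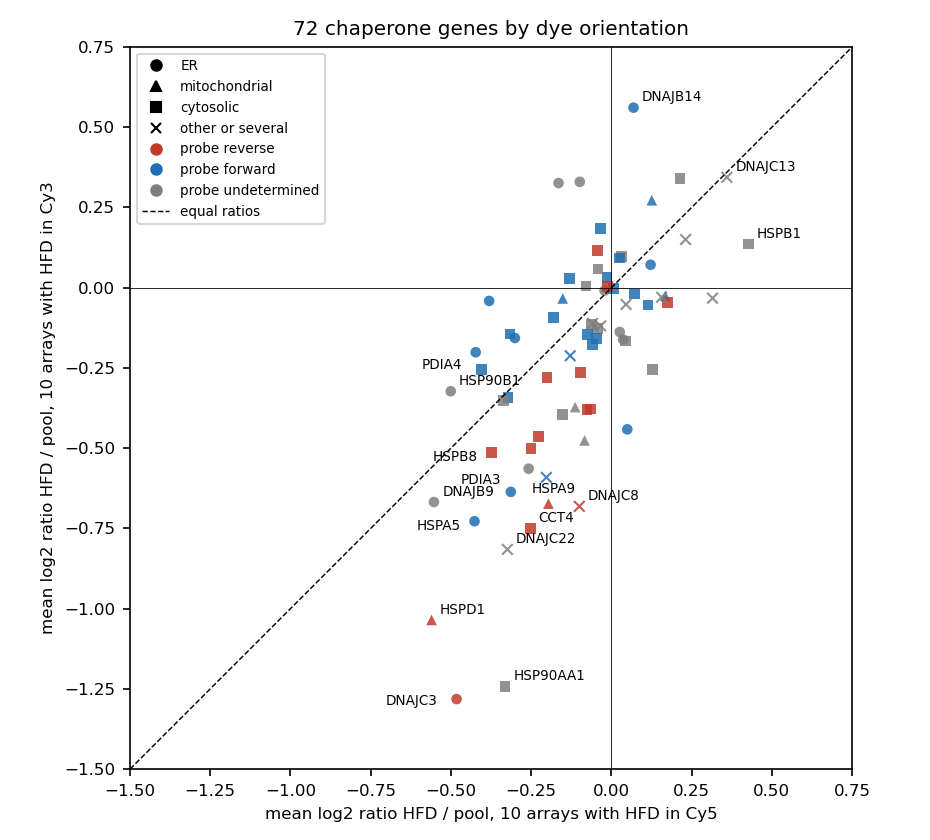
Mean log2 ratio of HFD liver over STD pool on the 10 arrays with HFD in Cy5 (x axis) and on the 10 with HFD in Cy3 (y axis) for 72 chaperone genes, 1 point per gene, with a dashed line at equal ratios. HSP90AA1, DNAJC3 and HSPD1 lie below the line and DNAJB14 above it.

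On single arrays, the medians of reverse probes set the 6 arrays apart from the other 14. On the 6 arrays that stood apart the median reverse chaperone probe lay between -1.26 and -0.79, and on the other 14 between -0.48 and 0.01. The median forward chaperone probe lay between -0.17 and -0.02 on the 6 arrays and between -0.23 and 0.09 on the other 14, so that the forward ranges overlapped and the reverse ranges did not. Over all named reverse probes the array medians were -0.38 to -0.25 on the 6 arrays and -0.15 to 0.03 on the other 14. In animals 1 to 4 the order between the orientations was the other way for the chaperone reverse probes, with array medians of -0.44, -0.32, -0.20 and -0.36 with HFD in Cy5 and of -0.05, 0.01, -0.08 and -0.31 with HFD in Cy3.

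**Figure D5:**
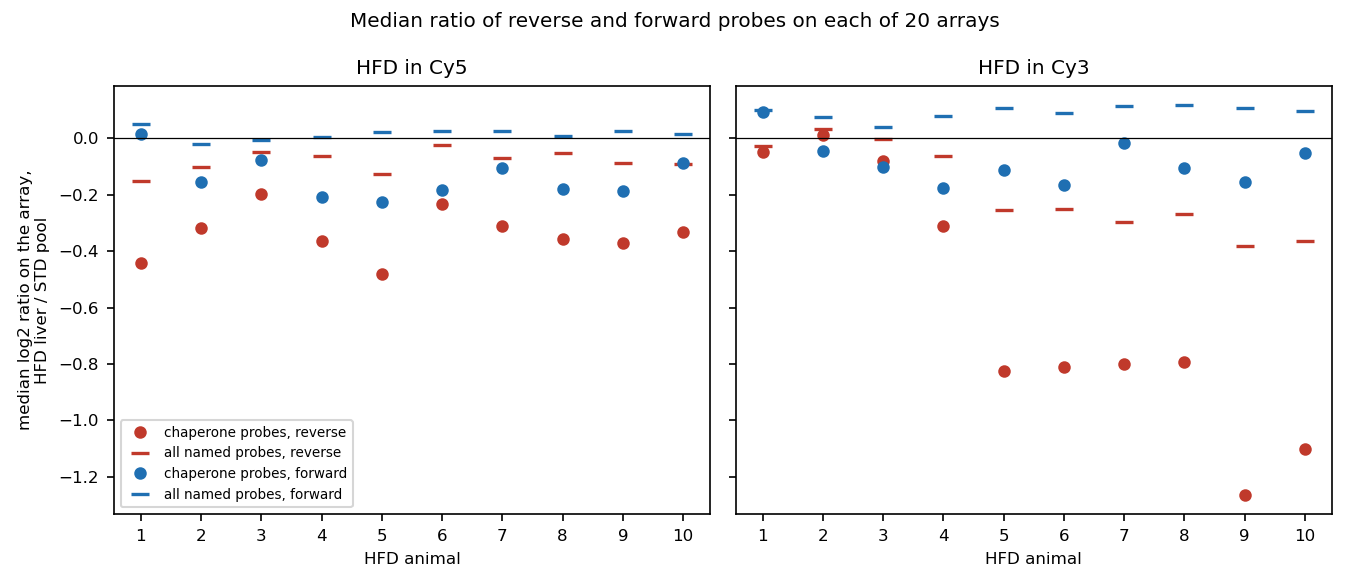
Median log2 ratio of HFD liver over STD pool (y axis) per array for reverse and forward probes, with chaperone probes as points and all named probes as dashes, by HFD animal (x axis) and dye of the HFD RNA (panels). The chaperone reverse probes of animals 5 to 10 lie at -0.79 or lower with HFD in Cy3.

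Some chaperones varied between animals more than between the 2 arrays of an animal. The SD between animals exceeded the SD of the orientation difference in 19 of 72 chaperones (26.4%), against 15.2% of all genes. Among these, 9 had an animal SD above 0.2, a limit chosen after the values were seen: the ER genes HSPA5, HSP90B1 and PDIA4, and the cytosolic genes DNAJB1, HSPA8, HSPA1L, DNAJA4, HSP90AB1 and DNAJA1. The 6 cytosolic genes were all above the pool in animals 1, 3 and 7 and all below it in animals 4, 5, 6, 8 and 9, with 4 of 6 above in animals 2 and 10. DNAJB1, an inducible partner of HSP70, lay at 0.88 in animal 1 and at -0.56 in animal 5, with a mean of 0.06 ± 0.47. HSPA8, the constitutive HSP70, lay at 0.43 in animal 1 and at -0.64 in animal 9. None of these 6 genes but HSPA1L (-0.23 ± 0.31, adjusted p = 0.0315) was called. The median of the 3 ER genes was below the pool in all 10 animals, from -0.69 in animal 9 to -0.12 in animal 1.

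Partner genes outside the families were read from a list of co-chaperones and stress regulators. Their counts stand beside the 28.9% lower and 31.4% higher of all genes, or the 18.3% lower and 24.9% higher on the 14 arrays. Of 40 tested ER partners 19 were lower and 5 higher (median -0.07), and on the 14 arrays 18 were lower and 6 higher. The lowest were SERP1 (-1.04 ± 0.38, and -0.66 on the 14 arrays), which steadies membrane proteins during translocation, and FKBP11 (-0.93 ± 0.30), a prolyl isomerase. SEC63, the J protein of the translocon, averaged -0.70 ± 0.11, the lectin chaperone CALR -0.55 ± 0.21 (-0.31 on the 14 arrays) and P4HB, the first disulphide isomerase, -0.24 ± 0.11 (-0.15 on the 14 arrays), all lower. ATF6, a sensor of the unfolded protein response, was lower at -0.39 ± 0.31 and lost its call on the 14 arrays (-0.07, adjusted p = 0.226), while CANX (-0.04 ± 0.12) and XBP1 (-0.07 ± 0.26) were not called. TMX3, a membrane disulphide isomerase, was higher at 0.29 ± 0.09. SIL1, the exchange factor of HSPA5, was higher at 0.25 ± 0.13.

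Of 26 cytosolic partners 13 were lower and 2 higher (median -0.07), and on the 14 arrays 8 were lower and 2 higher. CDC37, which brings kinases to HSP90, was higher at 0.27 ± 0.07. FKBP5 (-0.62 ± 0.27), ST13 (-0.47 ± 0.25, and -0.17 on the 14 arrays) and STIP1 (-0.30 ± 0.13, and -0.18 there), co-chaperones of HSP90 and HSP70, were lower, and HSF1 was lower by a small amount (-0.06 ± 0.05, adjusted p = 0.0349), a call lost on the 14 arrays (adjusted p = 0.285). Of 15 mitochondrial partners 5 were higher and 5 lower (median -0.01), shares near those of all genes, and on the 14 arrays 4 were higher and 5 lower. LONP1 (0.45 ± 0.13), the matrix protease, and TRAP1 (0.38 ± 0.14), the mitochondrial HSP90, were higher on forward probes. CLPX (-0.79 ± 0.46, and -0.37 on the 14 arrays) and PHB2 (-0.60 ± 0.22, and -0.31 there) were lower on reverse probes, and ATF5, a regulator of the mitochondrial stress response, was lower at -0.81 ± 0.16. With forward probes alone, 5 of 7 mitochondrial partners were higher and 1 lower (median 0.18), and 8 of 17 ER partners were lower and 4 higher, against 38.2% higher and 22.5% lower of all genes with forward probes.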

How the data were processed

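Liver RNA was measured on 2-colour arrays made with a whole-transcript labelling kit, per the labels' protocols. The deposited spot intensities, mean signal and local background, came from Agilent Feature Extraction 10.7.3.1, per the file headers. The deposited log10 ratio of red over green served only to check dye orientation. Log2 ratios of each probe and animal, as deposited by the authors, were an alternative, with limma named in the submitters' processing notes.

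Intensities were corrected with normexp (offset 50) and loess was run within each array (limma 3.58.1, R 4.3.3). The 2 arrays of an animal were averaged. A probe was kept when well above background in either RNA on at least 10 of 20 arrays, and the brightest one stood for its gene. Names are those of the array design, and 70 of the 74 occur among RefSeq symbols. Mean ratios were tested with lmFit and eBayes, Benjamini-Hochberg over all genes, at 0.05. Probe direction came from a codon use model fitted over 30573 assembled transcripts, with a log likelihood ratio of at least 3 required. Scripts were tested on simulated data.

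The members and lists were chosen with earlier results of these data known. Genes named are the 8 highest and 8 lowest called members, a core list, the 4 with the largest orientation difference and those with opposed probes, and others were chosen after their values were seen. Alternatives covered signal processing, filters, probe choice, dye orientation, arrays, slide, session and single animals.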

Additional observations from a re-analysis of the deposited data

How the results depend on the processing

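With 41 named genes and 27 settings, 978 of 1062 values kept their direction and call, 38 lost the call, 15 gained one and 14 changed direction with a call on either side. A further 17, in 7 genes called on neither side, crossed 0 at sizes of at most 0.0684. Among the 27 settings, normalisation between arrays leaves the ratios as they are, so its 41 values could not change. A block by animal on all 20 arrays and another variance model also keep the ratios, so only calls could change there. Leaving out 1 animal at a time gave 35 to 38 chaperones lower and 9 to 11 higher, 32 to 45 with an orientation difference, and medians of -0.12 to -0.09 over the chaperones, -0.23 to -0.18 in the ER, -0.10 to -0.07 in the cytosol and -0.26 to -0.22 in mitochondria. Of 41 genes, 39 passed a strict filter on dim probes and all 39 kept direction and call. A gene whose brightest probe passes a filter keeps that probe and its ratios, so only its call could change. The same largely holds without a filter on dim probes, where all 41 genes kept direction and call. These values count among the 978 and cannot show whether signal over background limits the ratios. The choices of forward and reverse probes were added after seeing the data. With reverse probes, 21 of 28 were lower and 1 higher, and the median was -0.38 over the chaperones, -0.88 in the ER, -0.35 in the cytosol and -0.43 in mitochondria. With forward probes, 17 of 38 were lower and 6 higher, 12 partners were lower and the mitochondrial median was 0.0729; fewer genes had such probes. The mitochondrial median was -0.0793 on the 14 arrays, -0.11 with HFD in Cy5 and -0.37 with HFD in Cy3, and the third scan session called 4 chaperones higher. Values that changed direction with a call on either side were, with forward probes, HSPA12A 0.0301, HSPA1A -0.25, HSPA9 0.0749 and HSPBP1 0.12. With reverse probes they were DNAJC13 -0.0445, DNAJC16 -0.13 and HSPA12A 0.0909. With the mean of all probes they were DNAJC10 0.0839, HSPA1A -0.15 and HSPBP1 0.0163. With HFD in Cy5 they were CCT5 0.13 and HSPA13 -0.10, with HFD in Cy3 HSPB11 -0.0327, and on the 14 arrays HSPA12A 0.0172. The cause of these changes was not tested. HFD and STD animals could not be paired, since the STD animals were measured only as 1 pool. The numbers name the HFD animals, and both arrays of an animal were averaged for its ratio over the pool. Differences between dye orientations and between probe directions were taken within each animal.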
